A study of Mus musculus with 36 samples.

Results

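Rgs2 and 8 other genes of the regulator of G-protein signaling (RGS) family, Rgs1, Rgs3, Rgs4, Rgs5, Rgs10, Rgs12, Rgs14 and Rgs16, were followed across the fast tibialis anterior (TA) and the slow soleus of WT and ∆Ig3-MuSK mice. They are 9 of the 51912 Ensembl gene IDs counted in each library, and all 9 were found by symbol. Rgs2 was chosen by its own readout, a lower level in the ∆Ig3-MuSK soleus than in the WT soleus. The soleus comparison of the genotypes is therefore given for the 9 genes as a description, with no test. The other 8 genes were taken as relatives of Rgs2. The TA of the 2 genotypes was not used in that choice and was tested.

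RGS proteins are GTPase-activating proteins for the alpha subunits of heterotrimeric G-proteins. A receptor coupled to a G-protein loads the alpha subunit with GTP, and an RGS protein speeds the hydrolysis of that GTP, which ends the signal of both the alpha subunit and its beta-gamma partner. RGS2 acts mainly on the Gq class, which drives phospholipase C and calcium release, and its gene is an early response gene in many cells. RGS4, RGS5 and RGS16 act on the Gi and Gq classes, and RGS5 is best known from pericytes and vascular smooth muscle. These proteins, with RGS1 and RGS3, belong to the R4 subfamily, whereas RGS10, RGS12 and RGS14 belong to the R12 subfamily and act on the Gi class. Whole skeletal muscle holds fibers, vessels, nerve ends and immune cells, and each of these can contribute RGS transcripts.

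All animals were male C57BL/6 mice of 3 months. The ∆Ig3-MuSK mice were homozygous for a Musk allele from which CRISPR-Cas9 had removed exons 6 and 7, so that the receptor tyrosine kinase MuSK lacks its BMP-binding Ig3 domain in every cell, and the WT mice carried the full allele. RNA came from the whole muscle. Each of the 4 groups (WT TA, ∆Ig3-MuSK TA, WT soleus, ∆Ig3-MuSK soleus) had 9 libraries, numbered as replicates 1 to 9, which makes 36 in all. Replicates with the same number in the 2 genotypes are different animals. The study states that a single muscle was taken from each animal, whereas the TA and soleus libraries of a genotype share 8 label numbers, and the muscle fits treat all libraries as separate animals.

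The libraries held 43492062 to 78660422 counts. They held 43492062 to 50051435 in the WT soleus, 46397769 to 60426556 in the ∆Ig3-MuSK soleus, 49287472 to 75091437 in the WT TA and 56584208 to 78660422 in the ∆Ig3-MuSK TA, so the ranges of the 2 muscles overlapped. The summed level of 8 slow fiber markers was 71.9 to 219 CPM (read counts scaled to the size of the library) in the TA and 21710 to 31230 CPM in the soleus, which matched the muscle label in all 36 libraries. WT soleus replicate 7 stood apart in macrophage markers (206 CPM against a median of 98.7), and WT TA replicate 5 in Rgs2. The latter library differed in more than Rgs2. It had the lowest TMM scaling factor of the 36 (0.805), and it was the lowest WT TA library for Rgs3, Rgs12 and Musk. Counts of the whole Musk gene cannot check a loss of 2 exons. They were 2.89 to 5.65 CPM in the WT TA against 2.63 to 3.97 in the ∆Ig3-MuSK TA, and 12.5 to 18.2 against 8.03 to 17.5 CPM in the soleus, and neither difference passed the test (adjusted p = 0.135 and 0.0978, edgeR quasi-likelihood test).

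Chromosome 1 holds 5 of the 9 genes, each next to another RGS gene. Rgs2 and Rgs1 share a stretch with Rgs13, Rgs21 and Rgs18 that has no other protein-coding gene. Rgs2 (GRCm38, 143999338 to 144004161, minus strand) is separated from Rgs13 by 134.5 kb, and Rgs1 follows 64.9 kb farther on. Rgs5 (169655501 to 169695813, plus strand) and Rgs4 (169741477 to 169747642, minus strand) are 45.7 kb apart, and Rgs16 (153740349 to 153745468, plus strand) lies 40.0 kb from Rgs8. The other members are on chromosome 4 (Rgs3), 5 (Rgs12), 7 (Rgs10) and 13 (Rgs14). Reads of Rgs12 and Rgs16 cannot be told from those of antisense genes over 467 and 236 exonic bases, because the libraries carry no strand.

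The sequences upstream of Rgs2, Rgs16, Rgs4 and Rgs5 are shown because these 4 genes of chromosome 1 were all higher in the soleus than in the TA. They are the 250 bases before the RefSeq start on GRCm38.p6, 5′ to 3′ on the strand of the gene. Capitals mark the core of the cAMP response element (TGACG, or CGTCA when read on the other strand) and TATAAA.
Rgs2 (chr1:144004150-144004399, minus strand): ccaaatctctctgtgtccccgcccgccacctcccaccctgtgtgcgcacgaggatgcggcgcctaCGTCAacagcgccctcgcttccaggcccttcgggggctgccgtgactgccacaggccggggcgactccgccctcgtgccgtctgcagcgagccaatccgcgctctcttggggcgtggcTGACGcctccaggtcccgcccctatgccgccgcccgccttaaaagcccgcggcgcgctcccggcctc
Rgs16 (chr1:153740103-153740352, plus strand): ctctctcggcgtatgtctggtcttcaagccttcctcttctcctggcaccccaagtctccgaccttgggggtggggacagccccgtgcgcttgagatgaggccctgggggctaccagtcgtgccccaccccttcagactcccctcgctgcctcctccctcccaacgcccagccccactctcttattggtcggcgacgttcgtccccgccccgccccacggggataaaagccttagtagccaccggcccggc
Rgs4 (chr1:169747643-169747892, minus strand): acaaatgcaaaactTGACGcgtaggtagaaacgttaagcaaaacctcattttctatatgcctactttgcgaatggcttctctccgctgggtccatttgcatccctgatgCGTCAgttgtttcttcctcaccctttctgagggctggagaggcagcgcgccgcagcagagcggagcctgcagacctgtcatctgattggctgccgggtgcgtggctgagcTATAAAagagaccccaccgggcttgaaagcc
Rgs5 (chr1:169655251-169655500, plus strand): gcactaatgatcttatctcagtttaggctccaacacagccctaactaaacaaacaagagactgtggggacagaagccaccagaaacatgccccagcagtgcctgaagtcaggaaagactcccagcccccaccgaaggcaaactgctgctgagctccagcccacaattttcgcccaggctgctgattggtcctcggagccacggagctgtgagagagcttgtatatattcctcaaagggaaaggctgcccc

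The core stood at 2 places upstream of Rgs2, first base at -185 and -67 from the start, and at 2 places upstream of Rgs4, at -236 and -141. It was absent from the Rgs16 and Rgs5 windows. In all, 20.8% of 32851 RefSeq promoter windows of 300 bases held TGACG on either strand, 1.79% the full element TGACGTCA (which contains the core and stood in no window of these genes) and 13.6% TATAAA. The last of these was present at -31 upstream of Rgs4 and at -100 and -177 in the 2 windows of Rgs3. The second window of Rgs12 held the core at -82 and the AP-1 motif TGAGTCA, found in 5.2% of all windows, at -22. The 300-base window of Rgs2 was 70% G and C with 33 CpG sites and that of Rgs16 was 66% with 22, against a median of 52.7% and 7 sites over all windows. Windows were found for 7 of the 9 genes and not for Rgs1 and Rgs14. These matches describe letters in the window and no binding was measured.

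Levels between genes were compared as CPM per kilobase of annotated exon. Rgs5 was far above the others in every library, with means of 66.2 CPM per kilobase in both TA groups, 85.7 in the WT soleus and 90.9 in the ∆Ig3-MuSK soleus, and it took 88.1% to 92.5% of the reads of the 9 genes. By this measure Rgs4 came next in all 4 groups. The mean of Rgs4 was 2.26 CPM per kilobase in the WT TA, 2.43 in the ∆Ig3-MuSK TA, 4.45 in the WT soleus and 4.70 in the ∆Ig3-MuSK soleus. Rgs2 was the third gene in both soleus groups, where its lowest library lay above the highest library of Rgs3. Per kilobase of the longest coding transcript, mean Rgs3 was above Rgs4 in the WT TA (2.43 against 2.382) and the ∆Ig3-MuSK TA (2.704 against 2.562). Rgs3 was then also above Rgs2 in the ∆Ig3-MuSK soleus (2.606 against 2.165), so the place of Rgs3 depends on the length used.

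In the TA the order below Rgs4 was less clear. Rgs2 and Rgs3 were at 1.12 and 1.06 CPM per kilobase in the WT TA, where their ranges overlapped and 4 of 9 libraries had more Rgs2, and at 0.855 and 1.18 in the ∆Ig3-MuSK TA, where 7 of 9 had more Rgs3. Rgs10 lay just below them at 0.790 to 0.909 CPM per kilobase in the 4 groups. Per kilobase of the longest coding transcript, mean Rgs10 was instead above Rgs2 in the WT TA (1.768 against 1.343). The same held in the ∆Ig3-MuSK TA (1.537 against 1.027), so the place of Rgs10 also depends on the length used. In the soleus Rgs10, Rgs16 and Rgs12 overlapped one another in both genotypes, at group means of 0.664 to 0.871 CPM per kilobase. In the TA Rgs12 stood above Rgs16 in every library, at means of 0.440 against 0.217 in WT and 0.511 against 0.172 in ∆Ig3-MuSK. Rgs14 was at 0.101 to 0.126 CPM per kilobase. Rgs1 was the lowest, with 0 to 11 counts per library and no count in 4 of 36 libraries. The plot of levels per kilobase shows these steps on a log scale.

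**Figure D1:**
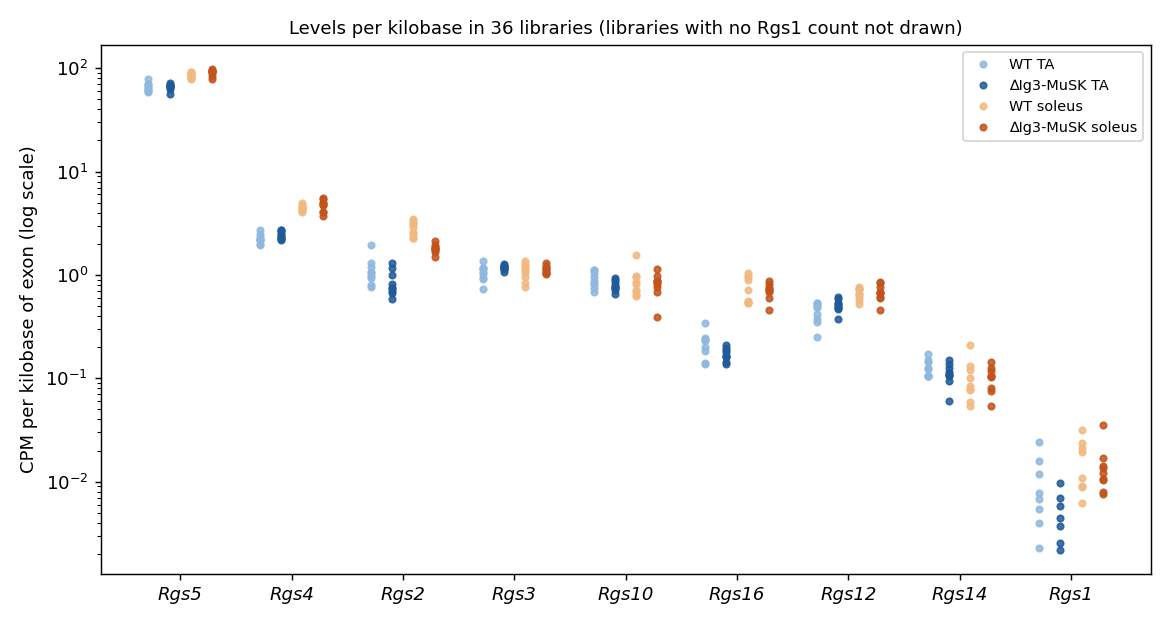
Level of each gene as CPM per kilobase of annotated exon (log scale) in every library, colored by group; the 4 libraries without an Rgs1 count are not drawn. Rgs5 sits above all other genes in every library, and the Rgs2 points of the WT soleus lie above those of the other 3 groups.

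Rgs2 was the one member whose genotypes separated in the soleus, which is what it was chosen for. It was at 8.17, 10.6 and 12.7 CPM (lowest, median and highest library) in the WT soleus and at 5.41, 6.52 and 7.73 CPM in the ∆Ig3-MuSK soleus. All 9 ∆Ig3-MuSK libraries were below the lowest WT library. The means were 10.3 ± 1.67 and 6.54 ± 0.646 CPM (SD, n = 9 each), a log2 fold change of -0.67 ± 0.09 (SE), or 1.59-fold lower. In bulk RNA, fewer cells of a type and less RNA per cell cannot be told apart. Ranges that did not overlap between the genotypes were rare in the soleus (0.0687% of 18931 genes), and 0.952% of 19439 genes tested were called there (adjusted p under 0.05 and at least 1.2-fold). Nothing is read from those shares for Rgs2, which was selected on this contrast.

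In the TA, the level of Rgs2 was lower and the genotypes overlapped. It was at 2.79, 3.75 and 7.11 CPM (lowest, median and highest library) in the WT TA and at 2.11, 2.69 and 4.69 CPM in the ∆Ig3-MuSK TA. Of the 9 ∆Ig3-MuSK libraries, 5 were below the lowest WT library, and the WT range was stretched by replicate 5, at 7.11 CPM, with the next at 4.75. The log2 fold change was -0.38 ± 0.17 (SE; adjusted p = 0.193, edgeR), with a 95% interval of -0.73 to -0.02, and 0 of the 8 members tested were called, against 0.0149% of 20075 genes. Without WT TA replicate 5 it was -0.24 ± 0.15 (adjusted p = 0.383). At an unadjusted p under 0.05, 2 of the 8 members (Rgs2 and Rgs16) and 4842 of all genes passed, and with DESeq2 and limma-voom 0 members were called as well.

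**Figure D2:**
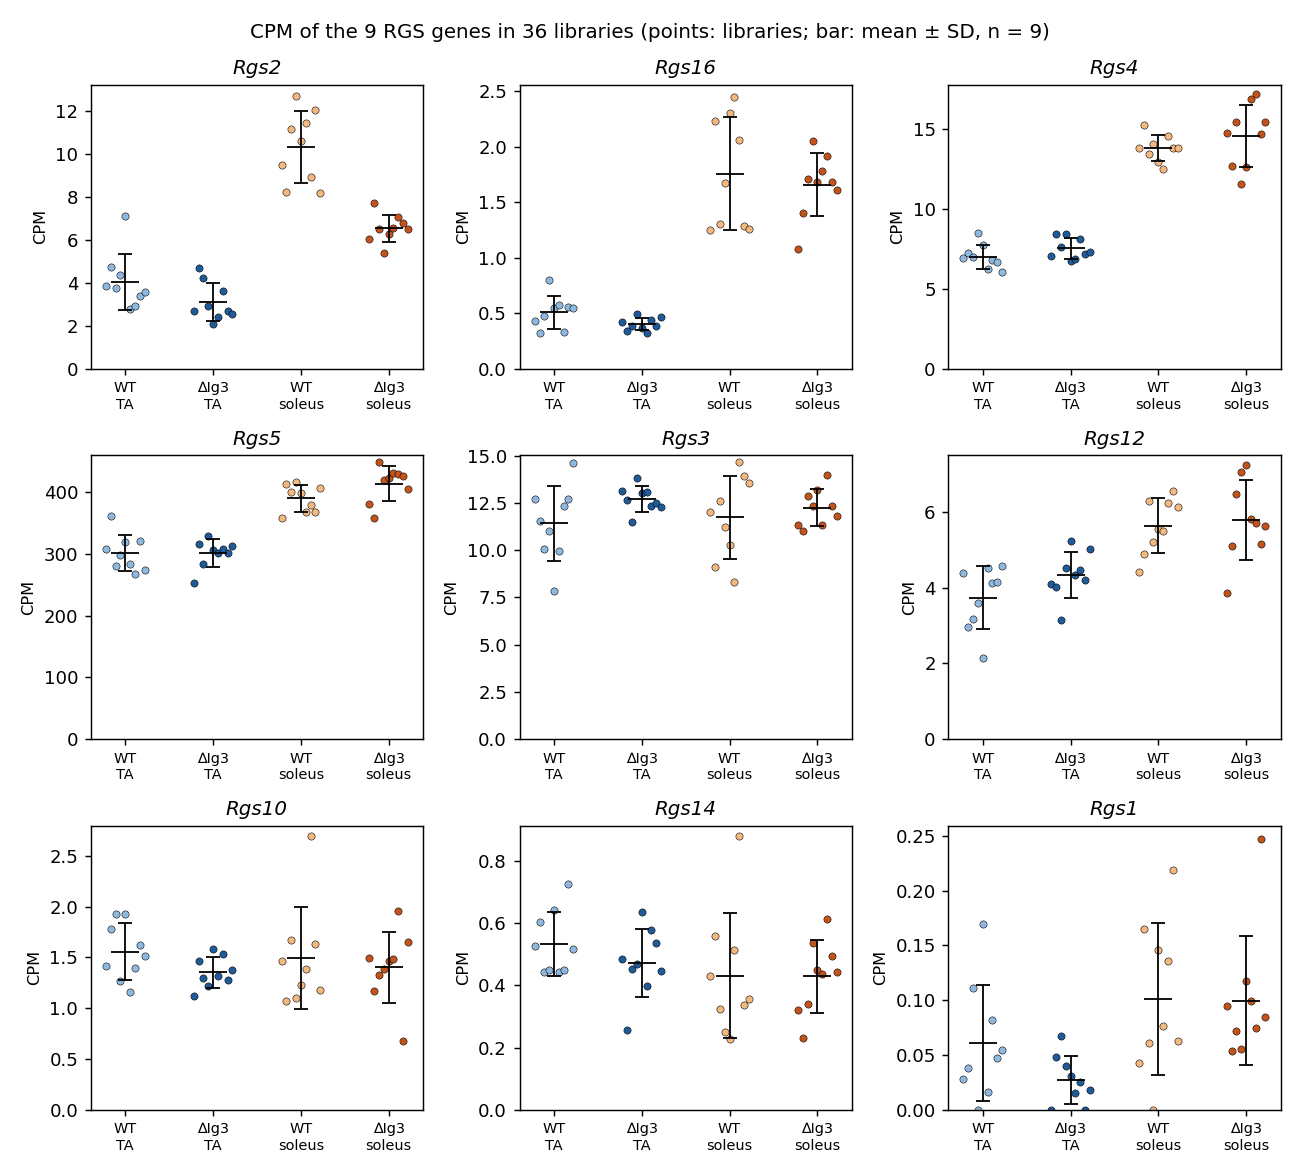
CPM of the 9 genes in each library by group, with the mean and SD as bars (n = 9 libraries per group); axes start at 0 and differ between panels. In the Rgs2 panel the WT soleus (8.17 to 12.7 CPM) and the ∆Ig3-MuSK soleus (5.41 to 7.73 CPM) do not overlap, whereas the genotypes overlap in both muscles for the other 8 genes.

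Rgs16, like Rgs2 an inducible member of the R4 subfamily, was low in the TA, at 0.322, 0.544 and 0.797 CPM (lowest, median and highest library) in WT and 0.322, 0.387 and 0.494 CPM in ∆Ig3-MuSK. All 9 ∆Ig3-MuSK libraries were below the WT mean, but only 1 was below the lowest WT library, and counts were 16 to 46 per library. The TA log2 fold change was -0.33 ± 0.16 (SE; adjusted p = 0.207, edgeR). In the soleus Rgs16 was at 1.25, 1.68 and 2.45 CPM in WT and 1.08, 1.68 and 2.05 CPM in ∆Ig3-MuSK, with a log2 fold change of -0.10 ± 0.15. In the WT soleus 4 libraries were at 2.07 CPM or more and the other 5 at 1.68 CPM or less.

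Rgs4 and Rgs5 had the smallest errors of the members, and neither was called by genotype in the TA. Rgs4 was at 6.04 to 8.48 CPM in the WT TA and 6.74 to 8.44 in the ∆Ig3-MuSK TA, with a log2 fold change of 0.11 ± 0.07 (SE; adjusted p = 0.288, edgeR). In the soleus Rgs4 was at 12.5 to 15.3 CPM in WT and 11.5 to 17.2 in ∆Ig3-MuSK (log2 fold change 0.07 ± 0.07), with 4 ∆Ig3-MuSK libraries above and 1 below the whole WT range. For Rgs5 the TA log2 fold change was 0.01 ± 0.06, with a 95% interval of -0.12 to 0.13 (adjusted p = 0.945), and in the soleus it was 0.07 ± 0.05, with 6 of the 9 ∆Ig3-MuSK libraries above the highest WT library.

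Rgs3, the longest protein among these R4 members, was 11.4 ± 1.97 CPM in the WT TA and 12.7 ± 0.668 in the ∆Ig3-MuSK TA (SD, n = 9 each). All 9 ∆Ig3-MuSK libraries exceeded the WT mean, and none exceeded the highest WT library. The log2 fold change was 0.16 ± 0.08 (SE; adjusted p = 0.237, edgeR) in the TA and 0.05 ± 0.10 in the soleus. Rgs1, a regulator known from lymphocytes, did not reach the count filter of the test in any fit. It summed to 32 counts over the 9 WT TA libraries, 16 in the ∆Ig3-MuSK TA, 46 in the WT soleus and 45 in the ∆Ig3-MuSK soleus.

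The 3 members of the R12 subfamily also passed no test by genotype. Rgs12, which carries Ras-binding and GoLoco domains beside its RGS domain, was at 2.13, 4.11 and 4.57 CPM (lowest, median and highest library) in the WT TA and at 3.15, 4.33 and 5.22 CPM in the ∆Ig3-MuSK TA, a log2 fold change of 0.22 ± 0.12 (SE; adjusted p = 0.267, edgeR). In the soleus its log2 fold change was 0.02 ± 0.11. Rgs10, a small RGS protein of immune cells and neurons, was at 1.16 to 1.93 CPM in the WT TA and 1.12 to 1.58 in the ∆Ig3-MuSK TA (log2 fold change -0.19 ± 0.11, adjusted p = 0.258), and its log2 fold change in the soleus was -0.11 ± 0.19 (0.06 without WT soleus replicate 7). Rgs14, which like Rgs12 binds Ras proteins, had 11 to 52 counts per library. Its log2 fold change by genotype was -0.16 ± 0.15 (adjusted p = 0.508) for the TA and -0.04 ± 0.24 for the soleus, which became 0.18 without WT soleus replicate 7.

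Over the 8 members tested the median log2 fold change by genotype was -0.08 in the TA, where it was -0.003 over all genes, and -0.01 in the soleus, where it was -0.002. The soleus median includes the selected Rgs2 and is a description. None of the 9 members had separate genotype ranges in the TA (0.0317% of 18931 genes had them). The plot of the genotype differences shows Rgs2 to the left in both muscles and the remaining members scattered about 0.

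**Figure D3:**
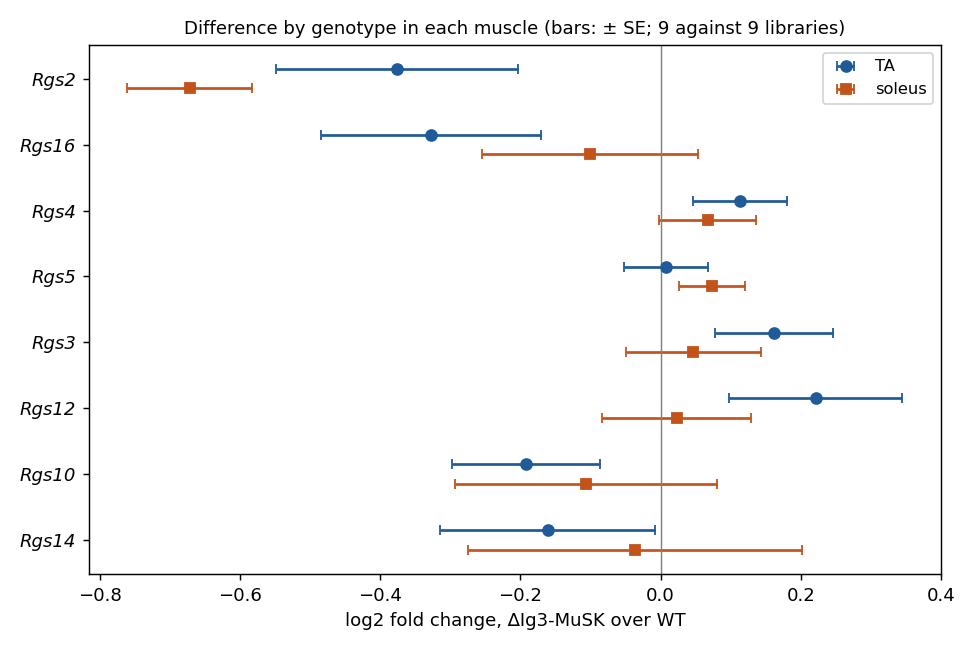
Log2 fold change of ∆Ig3-MuSK over WT (x axis) with its SE for the 8 members tested, in the TA (circles) and the soleus (squares), from 9 against 9 libraries in each muscle. Rgs2 is at -0.38 in the TA and -0.67 in the soleus, and the other 7 genes lie between -0.33 and 0.22; the soleus values are a description.

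The 2 muscles differed far more than the 2 genotypes. Of the 7 members tested between the muscles, 4 passed in WT and in ∆Ig3-MuSK alike, all higher in the soleus: Rgs16, Rgs4, Rgs12 and Rgs5. Over all 20841 genes 57.5% were called between the muscles in WT and 56.1% in ∆Ig3-MuSK, in either direction, and 30.2% and 28.5% were called higher in the soleus. The 4 of 7 called are near the share in either direction and above the share called higher, and with 7 genes nothing particular is read from either. The middle log2 difference of these 7 was 0.39 (Rgs5) in WT and 0.42 (Rgs12) in ∆Ig3-MuSK, and the median over all genes was 0.02 and -0.001. With Rgs2 included, which was selected on the soleus libraries, the median was 0.50 and 0.45, as a description. For Rgs2, whose soleus libraries had chosen it, the values stand without a test: the soleus was higher by a log2 fold change of 1.37 ± 0.14 (SE) in WT and 1.08 ± 0.14 in ∆Ig3-MuSK, and the lowest soleus library was above the highest TA library in each genotype.

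Rgs16 had the widest difference of the 7 tested, 1.80 ± 0.16 on the log2 scale (SE; adjusted p = 9.43e-13, edgeR) in WT and 2.04 ± 0.16 (adjusted p = 5.99e-14) in ∆Ig3-MuSK. In folds this was 3.49 and 4.12, and no soleus library reached down to the TA range. Rgs4, known to limit Gi and Gq signals in heart and brain, was 1.99-fold (adjusted p = 1.45e-15) and 1.95-fold higher (adjusted p = 3.73e-15) in the soleus, again with no overlap. The pericyte gene Rgs5 was 1.31-fold (adjusted p = 4.88e-08) and 1.38-fold higher (adjusted p = 1.06e-09), and Rgs12 was 1.53-fold (adjusted p = 2.04e-05) and 1.34-fold higher (adjusted p = 0.00162). The Rgs5 ranges overlapped by a single library in WT and not at all in ∆Ig3-MuSK.

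The members that were not called between the muscles were Rgs3, Rgs10 and Rgs14. The log2 difference of Rgs3 was 0.06 ± 0.09 in WT and -0.04 ± 0.09 in ∆Ig3-MuSK (SE; adjusted p = 0.587 and 0.674, edgeR), with 95% intervals within -0.23 and 0.24. For Rgs10 it was -0.04 ± 0.15 and 0.06 ± 0.15. For Rgs14 it was -0.28 ± 0.20 (adjusted p = 0.219) in WT and -0.14 ± 0.20 in ∆Ig3-MuSK, and the WT value rested on soleus replicate 7, whose 0.881 CPM was the highest of the 36 libraries. Without that library it was -0.49 ± 0.18 (adjusted p = 0.0183), and with limma-voom, which weights libraries, -0.54 ± 0.19 (adjusted p = 0.0102). Of 12 mural cell markers, 9 were called higher in the WT soleus, and 5 higher and 2 lower in the ∆Ig3-MuSK soleus. Over all genes 57.5% and 56.1% were called in either direction, and 30.2% and 28.5% as higher in the soleus. The ∆Ig3-MuSK count was near the share in either direction. Summed levels were 2273 to 2821 CPM in the TA and 3529 to 4338 CPM in the soleus, a sum that includes Des, which muscle fibers also make. The part of the mural cell markers in the Rgs5 difference was not tested.

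**Figure D4:**
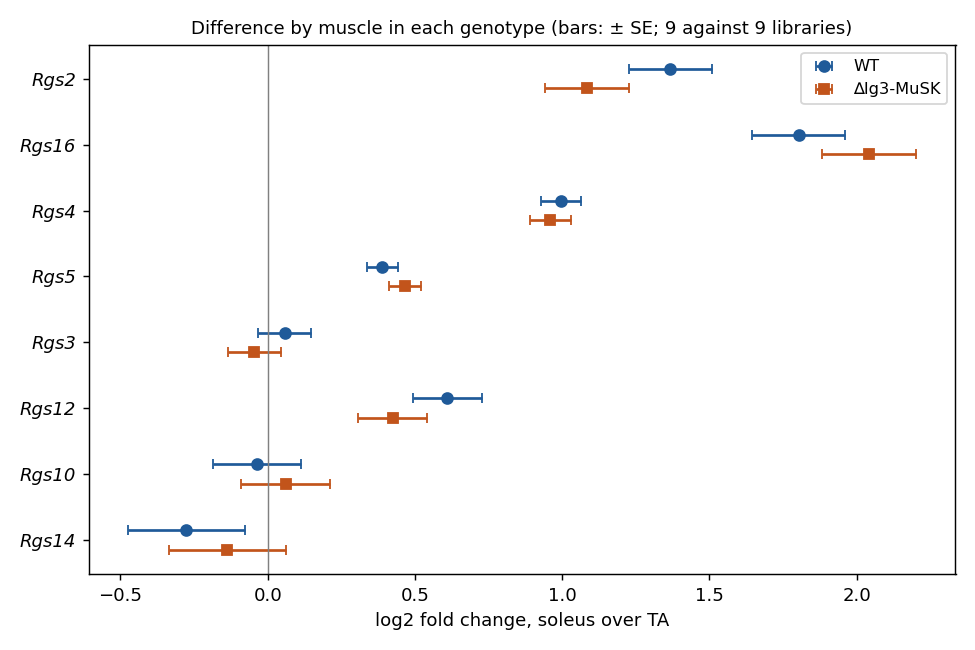
Log2 fold change of soleus over TA (x axis) with its SE for the 8 members with enough counts, in WT (circles) and ∆Ig3-MuSK (squares), from 9 against 9 libraries. Rgs16 lies farthest to the right (1.80 and 2.04), followed by Rgs2 (a description) and Rgs4, whereas Rgs3, Rgs10 and Rgs14 lie at or below 0.06.

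The genotype effect was then compared between the muscles. No member was called in this interaction, and of all 20841 genes 0% were called by edgeR, although 5193 had an unadjusted p under 0.05. Other tools gave other totals, with 852 genes called by DESeq2 and 959 by limma-voom, none of them a member. The difference of the log2 fold changes, soleus minus TA, was -0.28 ± 0.20 (SE) for Rgs2, with a 95% interval of -0.69 to 0.12, which is a description. For the members tested it ranged from -0.19 ± 0.16 for Rgs12 (adjusted p = 0.487) to 0.24 ± 0.22 for Rgs16 (adjusted p = 0.512, edgeR). The genotype difference of Rgs2 was therefore not shown to be larger in the soleus than in the TA.

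Several gene groups and library features moved with genotype in the soleus beside Rgs2. Over all genes tested, 0.952% were called by genotype in the soleus and 0.0149% in the TA. Of 24 immediate early genes, which report recent stimulation of a tissue, 3 fell in the ∆Ig3-MuSK soleus and none rose, and the median of the 24 log2 fold changes was -0.54 (-0.10 in the TA, where none was called). The 3 were Egr3, a transcription factor of muscle spindles (-1.56 ± 0.38 SE, adjusted p = 0.0459), Cyr61, a matricellular protein (-0.76 ± 0.14, adjusted p = 0.0219), and Fosl2, an AP-1 subunit (-0.54 ± 0.11, adjusted p = 0.0312, edgeR). The summed level of the 24 was 443 to 777 CPM in the WT soleus and 323 to 555 CPM in the ∆Ig3-MuSK soleus, and 6 WT libraries (replicates 1, 3, 4, 5, 6 and 9) were above every ∆Ig3-MuSK library. Without those 6, the log2 fold change of Rgs2 was -0.59 ± 0.11 (SE), and 0 of 20403 genes were called. The 6 were picked after seeing these same libraries and few WT libraries remained, so nothing about Rgs2 is read from this split.

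Of 17 circadian clock genes, 9 rose and 2 fell in the ∆Ig3-MuSK soleus. The clock activators Arntl (-0.78 ± 0.16 SE) and Npas2 (-1.18 ± 0.20) fell, and Ciart, Per2, Dbp, Per3, Hlf, Tef, Nr1d2, Bhlhe41 and Cry2 rose by 0.44 to 1.65 on the log2 scale (adjusted p from 0.0134 to 0.0339, edgeR). In the TA Dbp, a clock output factor, was the single one called (0.90 ± 0.11, adjusted p = 0.0012), but other clock genes had log2 fold changes of like size there: Per2 was at 1.44, Ciart at 1.25, Per3 at 0.81, Cry2 at 0.55 and Arntl at -0.57 (adjusted p from 0.0606 to 0.135, edgeR). Summed clock levels were 539 to 693 CPM in the WT soleus and 682 to 920 CPM in the ∆Ig3-MuSK soleus. Of 11 neuron markers 2 rose, and the median of the 11 log2 fold changes was 0.59. Gad1, the enzyme that makes GABA (0.93 ± 0.20 SE, adjusted p = 0.0323), and Syt1, the calcium sensor of synaptic vesicles (0.84 ± 0.19, adjusted p = 0.0390), were the 2. The sum of the 11 in ∆Ig3-MuSK soleus replicates 1 to 6 (16.7 to 18.8 CPM) was above every WT soleus library (12.8 to 15.3), whereas in replicates 7 and 9 (11.96 and 12.1 CPM) it was below every WT soleus library. Without those 6 libraries Rgs2 was at -0.62 ± 0.14, and 0 of 20293 genes were called. This split was also picked after seeing the libraries, and nothing about Rgs2 is read from it. Depth moved as well, with 43492062 to 50051435 counts in the WT soleus and 46397769 to 60426556 in the ∆Ig3-MuSK soleus. The part of these gene groups and of depth in the Rgs2 difference was not tested.

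Within a group, Rgs2 could be set against the immediate early score, the mean of the centred log2 CPM of the 24 genes. Pearson r was -0.25 in the WT TA, 0.00 in the ∆Ig3-MuSK TA, 0.41 in the WT soleus and 0.70 in the ∆Ig3-MuSK soleus (n = 9 each). The exact permutation p was 0.462, 0.992, 0.271 and 0.0420, and adjusted over the 16 relations computed it was 0.822, 0.992, 0.542 and 0.112. Spearman rho was -0.30, -0.07, 0.27 and 0.73, the last with an exact permutation p = 0.0311 (adjusted p = 0.157). Without the 2 libraries farthest from the median score r was -0.55, 0.42, -0.04 and 0.65. No relation of Rgs2 with the score passed the correction.

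Rgs10 was correlated with the macrophage markers in 3 of the 4 groups. Its Pearson r with the score of 10 macrophage markers was 0.87 in the WT TA, 0.85 in the ∆Ig3-MuSK TA, 0.89 in the WT soleus and 0.66 in the ∆Ig3-MuSK soleus. By exact permutation over all 362880 pairings the adjusted p was 0.0288 in both TA groups (p = 0.00324 and 0.00360), 0.0365 in the WT soleus (p = 0.00685) and 0.196 in the ∆Ig3-MuSK soleus (p = 0.0857). Spearman rho was 0.92, 0.73, 0.67 and 0.68, and its exact permutation p passed the correction in the WT TA alone (p = 0.00131, adjusted p = 0.0210, against 0.157 in the other 3 groups). Without the 2 libraries farthest from the median score r was 0.71, 0.56, 0.40 and 0.77, so the WT soleus value rested on those libraries, above all on replicate 7, where Rgs10 was at 2.69 CPM and the markers summed to 206 CPM against a median of 98.7.

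**Figure D5:**
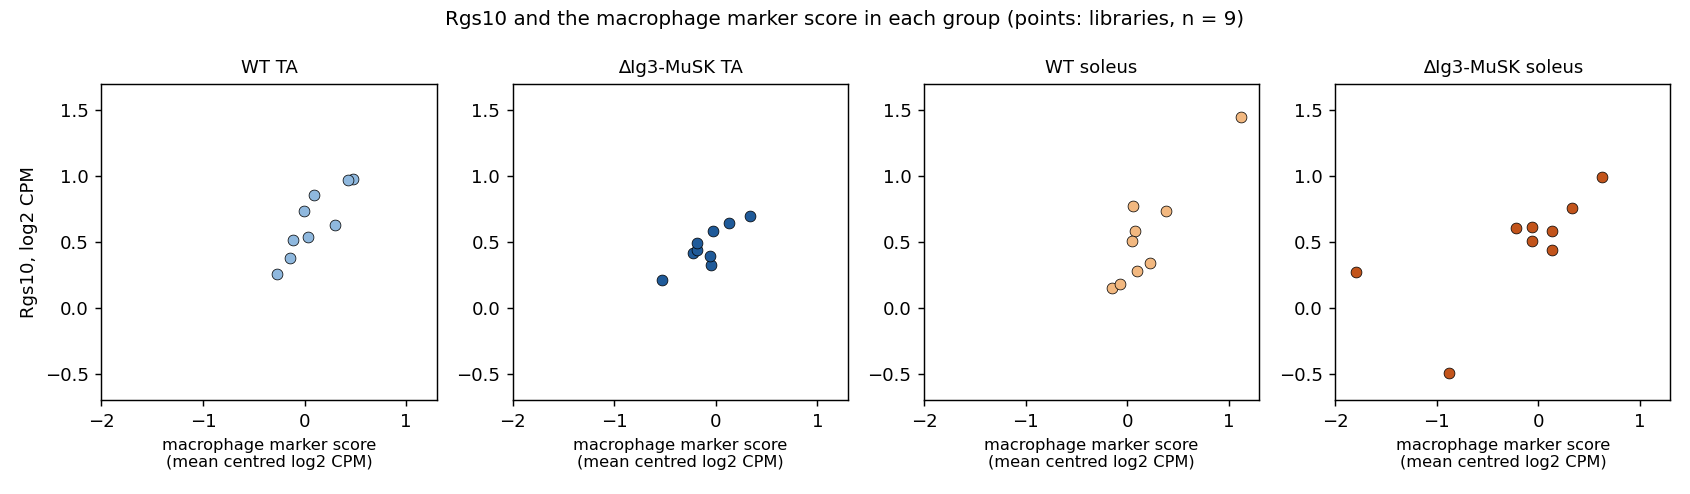
Rgs10 (log2 CPM) against the macrophage marker score (mean of the centred log2 CPM of 10 markers) in each group; each point is a library, n = 9 per group, on common axes. The points rise together in the WT TA (r = 0.87) and the ∆Ig3-MuSK TA (r = 0.85), and in the WT soleus a single library sits far to the upper right.

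The other 2 pairs gave no relation that passed the correction. Rgs5 and 12 mural cell markers had r of 0.70 in the WT soleus (exact permutation p = 0.0210, adjusted p = 0.0798) and 0.76 in the ∆Ig3-MuSK soleus (exact permutation p = 0.0249, adjusted p = 0.0798), and the latter was -0.12 without the 2 farthest libraries. In the TA r was -0.15 in WT and 0.23 in ∆Ig3-MuSK (exact permutation p = 0.693 and 0.580, adjusted p = 0.940 and 0.928). Rgs1 and the 4 lymphocyte markers with enough counts had r between -0.11 and 0.15 (adjusted p = 0.940, exact permutation). Spearman rho for these 8 relations ranged from -0.17 to 0.67, with adjusted p of 0.157 or more.

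The genes whose levels went most closely with Rgs2 were taken over the 36 libraries after the mean of each group had been removed. They were Nup35, a nuclear pore protein (r = 0.74), the septin Sept10 (0.74), the tetraspanin Tspan12 (0.73), Hcfc1r1 (0.71) and Zbtb8os (0.71). Within the 4 groups Sept10 had an r of 0.55 to 0.85, whereas Tspan12 ranged from 0.12 in the ∆Ig3-MuSK soleus to 0.95 in the WT TA. Most opposed were Slc7a8, an amino acid transporter (r = -0.76), Tecpr2 (-0.74), Aoc2 (-0.74), the histone demethylase Kdm4b (-0.73) and Gm12394 (-0.72). Within the groups Slc7a8 had an r of -0.82 to -0.70, and Tecpr2 of -0.91 to -0.16, the weakest being in the WT soleus. These values describe 18930 genes measured in the same libraries, with a median r of 0.01. The named genes were picked as the extremes over these libraries, so their r within the groups is no separate check. The median r with Rgs2 was -0.004 for the 24 immediate early genes, of which 12 were positive, and -0.32 for the 17 clock genes, of which 5 were positive. The 5 closest genes all had their highest r in the WT TA (0.85 to 0.95). Among the members, Rgs2 went with Rgs4 (0.42) and against Rgs12 (-0.56), and the closest pair was Rgs3 and Rgs12 (0.59). WT TA replicate 5 had the highest Rgs2 of the TA libraries (7.11 CPM). It also had the lowest Rgs3 (7.87 CPM) and Rgs12 (2.13 CPM) of the 36 libraries. These r values were not computed without it.

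The remaining RGS genes and their anchors were 14, of which 6 were tested by genotype in the TA and 9 in the soleus. Rgs9, an R7 subfamily member of photoreceptors and striatal neurons, was the single one called, in the soleus, where 0.952% of all genes tested were called. It was at 0.139, 0.228 and 0.440 CPM (lowest, median and highest library) in the WT soleus and 0.298, 0.461 and 0.723 CPM in the ∆Ig3-MuSK soleus, with 7 to 26 and 16 to 37 counts per library, so that it passed the filter on low counts through the group where it was higher. Nothing is therefore read from its call, and its values are a description. The log2 fold change was 0.94 ± 0.22 (SE), and the ranges overlapped. The log2 fold change was 0.51 ± 0.32 without the 6 ∆Ig3-MuSK soleus libraries that stood above WT in neuron markers. Without the 6 WT libraries high in immediate early genes it was 0.64 ± 0.32. The part of the neuron markers in the Rgs9 difference was not tested.

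Between the muscles, 5 of the 10 tested were called in both genotypes, against 57.5% and 56.1% of all genes. Over 138 exonic bases, reads of Rgs11 cannot be told from those of a protein-coding gene on the opposite strand. Rgs11 of the R7 subfamily was higher in the soleus (log2 fold change 1.21 ± 0.18 SE in WT and 0.92 ± 0.17 in ∆Ig3-MuSK). Rgs7 and Rgs9 of the same subfamily and Rgs8 of the R4 subfamily were also higher, by 1.01 to 2.69 on the log2 scale, but with 12 counts or fewer per TA library they entered the fit through the soleus alone, and nothing is read from their calls. Rgs9bp, the membrane anchor of RGS9, was lower (-1.73 ± 0.18 SE in WT, adjusted p = 9.88e-11, and -1.94 ± 0.18 in ∆Ig3-MuSK, adjusted p = 1.02e-11, edgeR). Gnb5, the beta subunit that R7 proteins need for stability, was lower as well (-0.98 ± 0.08 in WT and -0.87 ± 0.08 in ∆Ig3-MuSK). Rgs6, Rgs17, Rgs18, Rgs19 and the anchor Rgs7bp were not called. Rgs13, Rgs20 and Rgs22 stayed below the filter, and Rgs21 had no count in any of the 36 libraries.

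The partners of RGS proteins were also counted by genotype, where 0.952% of all genes tested were called in the soleus and 0.0149% in the TA. Of 13 G alpha subunits, none was called in either muscle, although Gna12 (-0.17 ± 0.04 SE, adjusted p = 0.0390) and Gna13 (-0.17 ± 0.04, adjusted p = 0.0381, edgeR) passed the adjusted p in the soleus and missed only the 1.2-fold minimum, and the median log2 fold change was 0.002 for the TA and -0.06 for the soleus. Of the beta and gamma subunits 1 of 14 tested rose in the soleus, Gng7 (0.37 ± 0.09 SE, adjusted p = 0.0381, edgeR), and none of 13 was called in the TA. Of 25 G-protein-coupled receptors tested in the soleus, F2r, the thrombin receptor, fell (-0.45 ± 0.09, adjusted p = 0.0290), and none of 26 was called in the TA. None of 12 phospholipase C beta and adenylyl cyclase genes and none of 7 receptor kinases and arrestins was called by genotype in either muscle. Acta2, the smooth muscle actin on the mural list, fell in the soleus (-0.38 ± 0.09, adjusted p = 0.0496).

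Between the muscles, the partners were also counted against all genes. Of the 13 G alpha subunits, 6 were called in WT and 4 in ∆Ig3-MuSK, all higher in the soleus, against 57.5% and 56.1% of all genes, among them Gnal (1.58 ± 0.10 SE and 1.39 ± 0.10 on the log2 scale) and Gnai1 (1.02 ± 0.18 and 1.24 ± 0.17), a Gi class target of RGS proteins. Of the 7 receptor kinases and arrestins, 6 were lower and 1 higher in the soleus in both genotypes, with a median log2 fold change of -0.71 in WT and -0.74 in ∆Ig3-MuSK.

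Macrophage, lymphocyte, endothelial, Schwann cell, fiber type and blood markers gave 0 calls by genotype (edgeR) in either muscle. The share over all genes was 0.952% in the soleus and 0.0149% in the TA. In the soleus the median log2 fold change was -0.37 for 10 macrophage markers, with 24.6 to 140 CPM in ∆Ig3-MuSK against 84.5 to 206 CPM in WT, and 0.29 for 5 blood markers, with 595 to 2313 against 650 to 1141 CPM. It was -0.32 for the 4 lymphocyte markers tested, -0.12 for 8 endothelial, 0.14 for 8 Schwann cell, -0.02 for 8 slow fiber and 0.25 for 8 fast fiber markers. Of the 12 lymphocyte markers, 4 (Cd3d, Cd3g, Cd8a and Nkg7) had no count in some libraries of each muscle.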

How the data were processed

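Whole-muscle RNA was sequenced without strand information. The authors trimmed reads with Trimmomatic, mapped them to mm10 (GRCm38) by GSNAP, obtained read counts for each gene by htseq-count, and deposited the raw counts in 1 table per muscle. Annotation release and counting mode are not given in the sources used here. Groups came from the labels. No columns of other samples were present (0).

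The 9 members, the gene lists and the tests were chosen with earlier results of these data known. The 2 genotypes were tested separately in TA and soleus by edgeR 4.0.16 (R 4.3.3; TMM, filterByExpr at 10 and 15 counts, quasi-likelihood test, Benjamini-Hochberg over all genes tested). Genes were called at adjusted p under 0.05 and at least 1.2-fold. Muscles and the interaction used 1 fit over 36 libraries with 4 group means. On simulated counts 89.5% of 200 genes changed by a log2 of 1 were recovered by genotype in each muscle (19894 genes in the TA, 19323 in the soleus), 86.5% between muscles in WT and 71.5% for the interaction. Of the genes called by genotype, 4.28% in the TA and 4.79% in the soleus were false. The simulated libraries were independent and the changes larger than those of the members by genotype, so power for the members was not measured. The SE is the absolute log2 fold change over the square root of F. CPM used TMM factors over 36 libraries. Per-kilobase values used the union of GENCODE exons unless the longest coding transcript is named. Log2 CPM had a prior count of 2. At 43492062 counts or more, precision for most members was set by the spread between animals, and Rgs1, Rgs10, Rgs14, Rgs16 and Rgs9 also carried counting error. The named genes are the members, Musk, all other RGS genes, listed genes called by genotype, and the 5 highest and 5 lowest in correlation with Rgs2. Gnb5, Gnal, Gnai1, Gna12, Gna13 and the markers without counts were named after their values were seen. Promoters came from RefSeq. Alternatives were RLE factors, DESeq2 1.42.0, limma-voom (limma 3.58.1), no filter, 1 fit over all libraries, number blocks and single libraries left out.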

Additional observations from a re-analysis of the deposited data

Results flagged for a closer look

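Over 40 sets of 9 libraries (the 9 members and Rgs9 in 4 groups), 4 had a highest library whose gap to the next, as a share of the range, passed Dixon's 95% critical value for 9 samples. Chance alone gives about 1 in 20. Rgs2 in WT TA replicate 5 was at 7.11 CPM, with a gap of 0.548 of the range, and that library also had the lowest TMM factor (0.805). In WT soleus replicate 7, Rgs10 was at 2.69 CPM (gap 0.632) and Rgs14 at 0.881 CPM (gap 0.495), and the macrophage markers of that library summed to 206 CPM, the highest of the 9. Rgs1 in ∆Ig3-MuSK soleus replicate 8 was at 0.247 CPM (gap 0.669), which is 11 counts.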

How the results depend on the processing

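No member was called in the TA or for the interaction under any other tool, scaling, filter or block tried or with single libraries left out, and Rgs4, Rgs5, Rgs12 and Rgs16 were called between the muscles in both genotypes under all of them. Without the 6 libraries high in neuron markers or the 6 high in immediate early genes (both chosen after seeing the data), 3 libraries remained in 1 group and 0 of all genes were called in the soleus. Rgs2 in the soleus ranged from -0.71 to -0.63 with single libraries left out. Rgs14 between the muscles in WT became called with limma-voom (-0.54) and without WT soleus replicate 7 (-0.49).

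The counts over all genes moved more. In the TA, 3 genes were called, against 234 with DESeq2, 150 with limma-voom, 692 in a single fit over 36 libraries, 10 without a filter and 3 to 9 with single libraries left out. In the soleus, 185 were called, against 490, 653 and 312 for the first 3 of these, and 22 (without WT soleus replicate 5) to 602 (without WT soleus replicate 1) with single libraries left out. For the interaction, 0 were called, against 852 with DESeq2, 959 with limma-voom and 0 to 1300 with single libraries left out (1300 without WT TA replicate 9, 920 without ∆Ig3-MuSK TA replicate 3, 95 without WT soleus replicate 1 and at most 10 otherwise). The cause was not tested.

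As for pairing, a block on the replicate number, which joins different animals, gave 0 genes by genotype for the TA and 347 for the soleus. Deviations of same-numbered libraries correlated at -0.15 to 0.50 in the TA and -0.33 to 0.38 in the soleus. A block on the label number shared by TA and soleus libraries gave 1 gene for the interaction. Its 8 WT pairs correlated at 0.02 to 0.18, with a median of 0.084 against -0.007 for the 73 other pairs. Its 8 ∆Ig3-MuSK pairs correlated at -0.001 to 0.35, with a median of 0.159 against -0.02. Of these pairs, 3 in WT and 7 in ∆Ig3-MuSK exceeded 0.1. Whether a shared label number means the same animal was not settled, and no member changed its call under either block.

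Values near 0 changed sign. With single libraries left out, Rgs5 by genotype in the TA ranged from -0.012 to 0.045 (below 0 in 6 of 18), Rgs3 between the muscles in WT from -0.0085 to 0.109, Rgs10 between the muscles in WT from -0.2004 to 0.013 and in ∆Ig3-MuSK from -0.012 to 0.148, and the Rgs4 interaction from -0.074 to 0.0032. With limma-voom, Rgs3 between the muscles in WT was -0.019. Of the 16 relations, 3 passed the correction, and the count stayed within 1.5 times under 3 alternatives. Pearson r of Rgs2 with immediate early genes in the ∆Ig3-MuSK TA was -0.015 with RLE factors, and that of Rgs5 with mural cell markers in the WT TA was 0.071 with the median score.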

Other observations

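Rgs1 was left out of the main tests by its low counts. With no filter on low counts it was higher in the soleus than in the TA in ∆Ig3-MuSK by a log2 fold change of 1.76 ± 0.52 (SE; adjusted p = 0.00544, edgeR), and with DESeq2 by 1.86 ± 0.55 (adjusted p = 0.00224). In WT the values were 0.76 ± 0.47 (adjusted p = 0.225, edgeR) and 0.77 ± 0.49 (adjusted p = 0.201, DESeq2). They rest on 16 and 45 counts in ∆Ig3-MuSK and on 32 and 46 counts in WT, summed over 9 libraries each, and the interaction had an adjusted p of 0.509 (edgeR).

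For 5 of the 9 members (Rgs1, Rgs2, Rgs3, Rgs10 and Rgs16) the coefficient of variation was lower in ∆Ig3-MuSK than in WT in both muscles. For Rgs3 it was 17.2% in the WT TA and 5.26% in the ∆Ig3-MuSK TA, and 18.6% and 7.95% in the soleus. For Rgs16 it was 28.5% and 14.2% in the TA, and 28.7% and 17.1% in the soleus. For Rgs4, Rgs5 and Rgs12 it was lower in the TA and higher in the soleus, and for Rgs14 the reverse held. The WT TA values of Rgs2 and Rgs3 include replicate 5, and the WT soleus value of Rgs10 includes replicate 7. Each of these libraries held the most extreme value of its gene in the group. Rgs1 had at most 11 counts per library. These differences in spread were not tested and the share over all genes was not computed, so nothing is read from the count of members.

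Rgs8, next to Rgs16 on chromosome 1, had 5 to 23 counts in the ∆Ig3-MuSK soleus and 6 to 11 in the WT soleus (log2 fold change 0.52 ± 0.24 SE). Its interaction was 1.16 ± 0.39, with 2 to 11 counts per library in the WT TA and 2 to 7 in the ∆Ig3-MuSK TA. At counts this low outside the ∆Ig3-MuSK soleus, both values are a description and nothing is read from them.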
